A study of Mus musculus with 6 samples.

Results

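Polycomb repressive complex 1 (PRC1) genes were followed in mouse embryos at the 4-cell stage that had received siRNA against Son as zygotes. The 10 genes were found by gene symbol among the 46072 genes of the count tables: Phc1, Phc2, Phc3, Rnf2, Ring1, Bmi1, Pcgf1, Pcgf6, Rybp and Cbx2, each with 1 row. Son encodes a large RNA-binding protein of nuclear speckles with a role in splicing, and by its title the series asked how Son acts on splicing and on histone methylation. Whole embryos gave 3 control libraries and 3 libraries after Son siRNA, prepared by Smart-Seq2, in which oligo(dT)-primed cDNA is copied over its full length and reads carry no strand information. The labels give neither the strain, the number of embryos per library nor what the controls were injected with, and no label assigns the libraries to separate litters. The p-values therefore measure the spread between these libraries, which may be technical.

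PRC1 is an E3 ligase that attaches ubiquitin to histone H2A at silent developmental genes. Its catalytic core pairs a RING protein (Rnf2, also called Ring1b, or Ring1) with a PCGF protein, and the choice of PCGF protein helps to set the type of complex. Canonical complexes carry Bmi1 or Pcgf2 with a CBX protein, which reads methylated histone H3, and a Polyhomeotic protein (Phc1, Phc2 or Phc3), whose SAM domain polymerises and compacts chromatin. Variant complexes carry Rybp or Yaf2 in place of the CBX protein. They include those built on Pcgf1, with the CpG-binding protein Kdm2b, on Pcgf6, with Mga and E2f6, or on Pcgf3 and Pcgf5. In mouse oocytes and early embryos PRC1 is inherited maternally and takes part in silencing developmental genes.

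Phc2 was the gene of the group that passed the test described below, and it has 3 annotated starts, shown here because the counts per gene cannot tell which start was used. Each window runs from 250 bases before to 50 bases after a start on the plus strand of chromosome 4, from RefSeq on GRCm38.p6, and capitals mark CG dinucleotides, the sites that CpG-binding proteins such as Kdm2b recognise.
Phc2 upstream start, chr4:128654452-128654751: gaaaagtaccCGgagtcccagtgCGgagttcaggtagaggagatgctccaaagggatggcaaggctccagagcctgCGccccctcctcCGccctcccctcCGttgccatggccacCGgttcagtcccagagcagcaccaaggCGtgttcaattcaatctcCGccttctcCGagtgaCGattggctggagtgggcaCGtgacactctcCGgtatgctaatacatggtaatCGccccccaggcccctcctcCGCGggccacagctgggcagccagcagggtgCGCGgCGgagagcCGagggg
Phc2 middle start, chr4:128688488-128688787: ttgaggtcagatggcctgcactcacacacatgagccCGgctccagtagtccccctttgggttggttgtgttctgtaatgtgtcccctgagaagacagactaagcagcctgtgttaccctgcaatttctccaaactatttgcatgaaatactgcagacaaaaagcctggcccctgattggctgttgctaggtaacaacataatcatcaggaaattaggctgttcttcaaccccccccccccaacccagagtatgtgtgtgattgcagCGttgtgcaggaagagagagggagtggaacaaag
Phc2 downstream start, chr4:128727321-128727620: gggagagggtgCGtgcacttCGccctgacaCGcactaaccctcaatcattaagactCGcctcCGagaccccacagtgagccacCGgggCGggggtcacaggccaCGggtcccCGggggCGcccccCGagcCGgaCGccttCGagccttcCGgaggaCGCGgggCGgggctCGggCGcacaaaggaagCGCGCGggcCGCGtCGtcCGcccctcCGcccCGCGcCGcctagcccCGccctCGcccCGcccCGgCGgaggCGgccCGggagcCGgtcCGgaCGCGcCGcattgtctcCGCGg
The upstream window holds 19 CG dinucleotides, the middle window 2 and the downstream window 45, against a median of 7 over 32817 promoter windows of 300 bases. Windows with fewer CG dinucleotides made up 72.0%, 14.1% and 98.1% of all windows for these 3 starts. RefSeq windows were matched by symbol for 7 of the 10 genes, with 9 windows in all; Cbx2, Pcgf1 and Rybp were without one. Ring1 had 37 CG dinucleotides, Rnf2 30, Bmi1 23, Pcgf6 22, Phc3 15 and Phc1 9. The letters CACGTG, the E-box bound by Mga with Max, were present on either strand in the windows of Bmi1, Phc3 and the upstream start of Phc2, and in 7.15% of all windows. The letters TTCCCGC, an E2F motif, were in 0 of the 9 windows on either strand and in 4.60% of all windows.

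Libraries held 104634855 to 118865650 estimated count units, and counting intervals or floors cover counting error only, since PCR copies are not marked by molecular identifiers. A floor of 3 read pairs, taken as 12 units, corresponds to 0.0906 to 0.125 CPM (counts per 1000000, scaled by the TMM method, which sets libraries level over the bulk of genes). Son had 249, 322 and 332 CPM in controls 1 to 3 and 41.03, 28.0 and 25.1 CPM in siRNA libraries 1 to 3. The siRNA libraries were all below the controls (log2 fold change -3.26, SE 0.27, adjusted p = 0.00991 in the edgeR quasi-likelihood fit, adjusted after Benjamini and Hochberg, 3 against 3 libraries), and leaving out any siRNA library took the adjusted p to between 0.0648 and 0.136. All 12 markers of the 4-cell embryo reached 1 CPM on average, but their sum was lower in every siRNA library, 7160 to 12370 CPM in controls against 4954 to 5334 CPM, and without Obox6, the most abundant, 4031 to 5810 against 2945 to 3141 CPM. Of 10 cumulus and granulosa markers, Fshr, Foxl2, Inha and Cyp11a1 were at 0 in all libraries. That list summed to 559.9 to 1384 CPM in controls and 227 to 327 CPM in siRNA libraries, nearly all of it Gja1, which embryos also express, and without Gja1 to at most 0.845 CPM in a control and 0.777 CPM in a siRNA library. Sperm markers summed to 14.0 to 30.1 CPM in controls and 26.7 to 35.1 CPM in siRNA libraries, nearly all of it Odf2, and without it to at most 1.32 and 1.09 CPM. Of 10 blood markers 4 reached 1 CPM and 5, Ptprc among them, were at 0 in all libraries; the list summed to 9.21 to 17.1 CPM in controls and 12.3 to 15.2 CPM in siRNA libraries, and without Hba-a1 to 5.07 to 7.34 and 6.17 to 8.53 CPM. The part of these marker levels in the results below was not tested. Controls differed among themselves more than siRNA libraries did, with a median SD of log2 CPM of 0.424 and 0.216 over 6079 genes at 10 CPM or more.

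After Son siRNA, Phc2 transcripts rose about 4.81-fold, Bmi1 had a mean 1.91-fold that of the controls and Pcgf1 stood at 42.2% of the control mean, while Phc1, Phc3, Pcgf6 and Rybp had siRNA values that overlapped the controls. All 10 genes passed the filter on low counts. By edgeR's test 1 rose (Phc2) and 0 fell; of all 17788 genes tested, 0.989% passed, 0.0899% upward and 0.899% downward. At an unadjusted p under 0.05 there were 2 higher (Phc2 and Bmi1) and 2 lower (Pcgf1 and Rnf2) members, where 5.88% and 8.86% of all genes were higher and lower. The 2 groups had no overlap in 3 of the 10 genes, Phc2 and Bmi1 higher and Pcgf1 lower, against 23.7% of all genes tested. The median log2 fold change was 0.16 for the 10 genes, 0.10 for the 9 without Ring1, and 0.02 for all genes tested. DESeq2's Wald test called Phc2 and Bmi1 higher and Pcgf1 lower (3 genes; 7.08% of all genes with an adjusted p, 2.33% higher and 4.74% lower), and limma-voom, with group-wise variances, called the same 3 genes (2.1% of all genes, 0.242% higher and 1.86% lower). In whole embryos, fewer cells with a transcript and less of it per cell cannot be told apart.

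**Figure D1:**
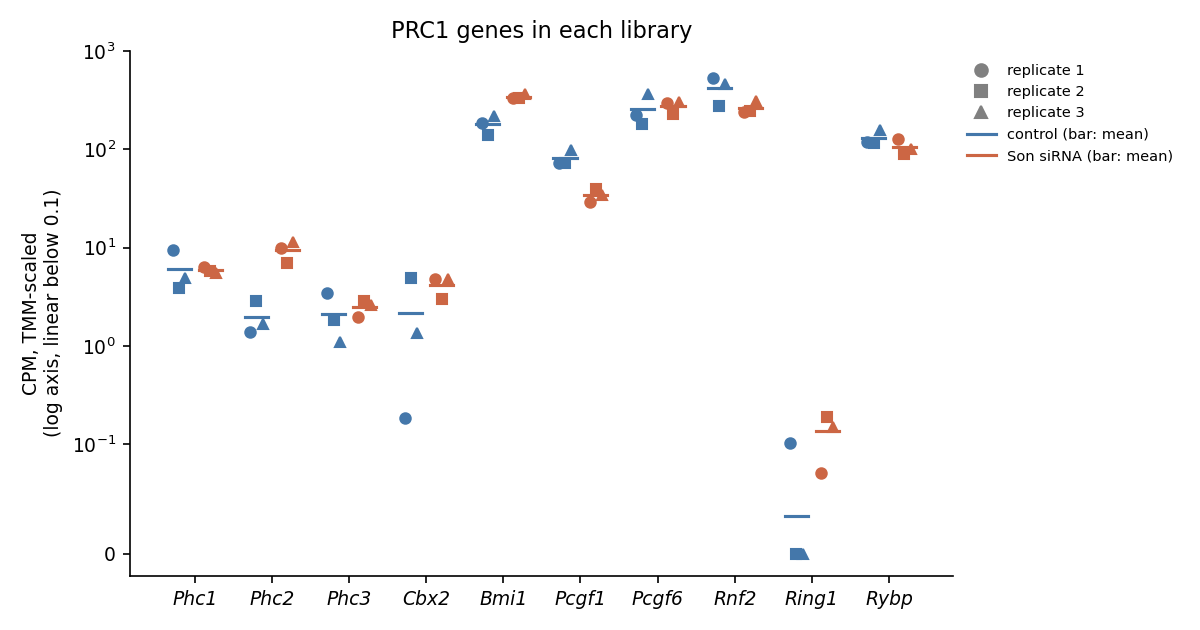
Level of each PRC1 gene in each library, in TMM-scaled CPM on a log axis that is linear below 0.1 (blue, 3 control libraries; red, 3 Son siRNA libraries; symbols, replicate numbers; horizontal bars, group means). Phc2 and Bmi1 lie higher and Pcgf1 lower in all siRNA libraries than in any control, and the other 7 genes overlap.

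**Figure D2:**
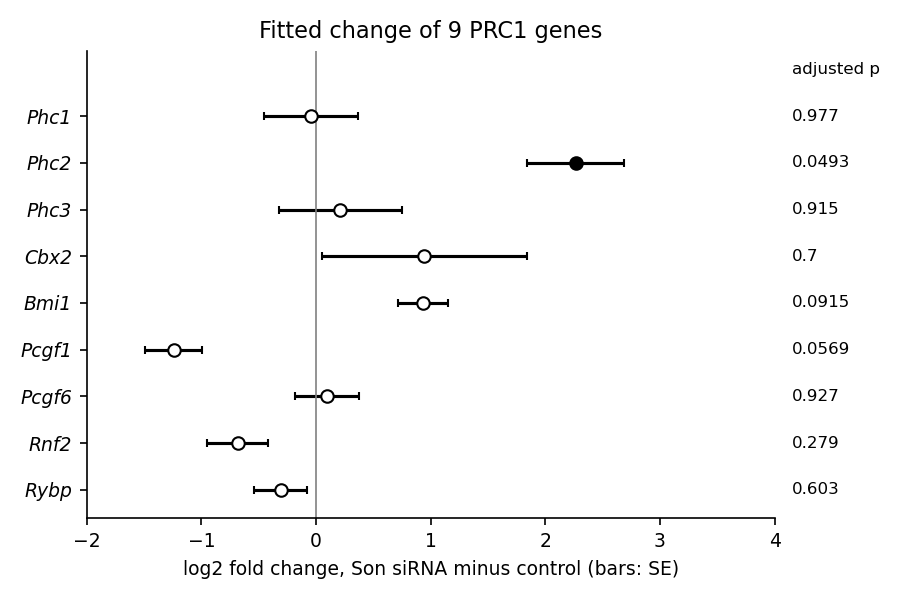
Fitted log2 fold change of 9 PRC1 genes (Ring1, near the floor, is left out), Son siRNA minus control, with its SE as bars and edgeR's adjusted p at the right. The filled point, Phc2, is past 0.05, and Cbx2 has the widest error.

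Of the catalytic RING genes, Rnf2 carried nearly all of the signal and Ring1 was at the limit of detection. Rnf2 (chromosome 1, 151458004 to 151500955 on GRCm38) had 528, 274 and 461 CPM in controls 1 to 3 and 236, 244 and 306 CPM in siRNA libraries 1 to 3. Controls 1 and 3 stood above all siRNA libraries, while control 2 fell among them. The means were 421 ± 131.5 and 262 ± 38.1 CPM (SD, n = 3 each), a log2 fold change of -0.69 (SE 0.27) that did not pass edgeR's test (adjusted p = 0.279). Without control 2 the log2 fold change was -0.91 with an edgeR adjusted p of 0.0646. It was -0.49 without control 1 (0.463), -0.61 without control 3 (0.365) and -0.35 with total-count scaling (0.521). Of Rnf2's exonic bases, 3.83% overlap Trmt1l on the opposite strand. Ring1 (chromosome 17, 34020792 to 34024680), the paralog that can replace Rnf2, had 10, 0 and 0 count units in controls and 9, 22 and 20 units in siRNA libraries. Of these 6 values, 4 lie under the floor of 12 units, so no fold change is given for it. Ring1 made up 0.0084% of the summed Ring1 and Rnf2 counts per kilobase of exon in controls and 0.0669% after siRNA.

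Among the PCGF genes, Bmi1 stood higher and Pcgf1 lower in every siRNA library, and Pcgf6 overlapped between the groups. Bmi1 (Pcgf4, of canonical complexes; chromosome 2, 18677018 to 18686629) had 183, 138 and 218 CPM in controls and 332, 335 and 360 CPM in siRNA embryos. The siRNA libraries lay within 1.08-fold of each other and above every control. The means were 179 ± 39.9 and 342 ± 15.2 CPM (SD, n = 3 each), a log2 fold change of 0.93 (SE 0.22). Bmi1 missed the threshold by edgeR (adjusted p = 0.0915). It passed with DESeq2 (0.0114), limma-voom (0.0412) and total-count scaling in edgeR (log2 1.26, adjusted p = 0.0469), 3 of the 16 fits run. Its highest adjusted p was 0.4055, by edgeR without siRNA library 3. Pcgf1 (of the variant complex with Kdm2b and Bcor; chromosome 6, 83077869 to 83080855) had 72.8, 72.9 and 97.2 CPM in controls and 29.1, 39.0 and 34.5 CPM in siRNA embryos. Again no siRNA library reached the lowest control. The means were 81.0 ± 14.0 and 34.2 ± 4.97 CPM, a log2 fold change of -1.24 (SE 0.25). Pcgf1 missed the threshold by edgeR (adjusted p = 0.0569). It passed with DESeq2 (0.000201), limma-voom (0.0278), a stricter filter (0.0403), counts divided by 4 (0.0375) and without control 2 (0.0490), 5 of the 16 fits run. By edgeR its adjusted p was 0.136 with total counts and 0.329, its highest, without siRNA library 3. Pcgf6 (of the variant complex with Mga, Max and E2f6; chromosome 19, 47033617 to 47050906) had 221, 181.5 and 367 CPM in controls and 295.5, 228 and 299 CPM in siRNA embryos. Its groups overlapped, with a log2 fold change of 0.10 (SE 0.28, adjusted p = 0.927 by edgeR) that was -0.10 without control 2. Of their 100-base stretches, 6.52% for Bmi1 and 5.03% for Pcgf1 also occur in transcripts of 1 other gene each, and 0% for Pcgf6.

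Among the Polyhomeotic genes, Phc2 rose and its paralogs did not pass the test. Phc2 (chromosome 4, 128654702 to 128752881, 12 annotated transcripts) had 134, 322 and 161 count units in controls and 1202, 824 and 1514 units in siRNA libraries. In CPM these were 1.40, 2.83 and 1.67 against 9.92, 7.04 and 11.4, so that the lowest siRNA library stood above the highest control. The means were 1.97 ± 0.764 and 9.47 ± 2.23 CPM (SD, n = 3 each), with a log2 fold change of 2.27 (SE 0.42); edgeR's adjusted p was 0.0493, just past the threshold. The call was lost without control 1 (edgeR adjusted p = 0.105), without control 3 (0.1004) and without siRNA library 1, 2 or 3 (0.295, 0.134 and 0.298). It was also lost without a filter (0.0670), with total-count scaling (0.0865) and with replicate number as a block (0.155). Phc2's log2 fold change stayed between 2.07 and 2.63 in all 16 fits. None of its exonic bases overlaps another gene and 0 of its 100-base stretches occur elsewhere. Phc1 (chromosome 6, 122317731 to 122340561), the best-studied Polyhomeotic gene of embryonic stem cells, had 9.47, 3.87 and 4.90 CPM in controls and 6.29, 5.83 and 5.54 CPM in siRNA embryos. Control 1 was the highest of the 6 and control 2 the lowest, and the log2 fold change was -0.05 (SE 0.41, adjusted p = 0.977 by edgeR), 0.43 without control 1 and 0.28 with total counts. Phc3 (chromosome 3, 30899371 to 30969415) had 3.48, 1.83 and 1.09 CPM in controls and 1.97, 2.84 and 2.61 CPM in siRNA embryos, and its groups overlapped (log2 0.21, SE 0.54, adjusted p = 0.915 by edgeR; -0.10 without control 3).

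Rybp and Cbx2, which define the variant and the canonical arm, did not pass the test either. Rybp (chromosome 6, 100228565 to 100287485), whose product binds ubiquitinated H2A and stimulates the ligase, had 119, 115 and 155 CPM in controls and 126, 88.8 and 100.1 CPM in siRNA embryos. The siRNA 1 library lay within the range of the controls, and the log2 fold change was -0.31 (SE 0.23, adjusted p = 0.603 by edgeR), or 0.01 with total counts. Cbx2 (chromosome 11, 119022962 to 119031270), the CBX protein that itself compacts nucleosomes, had 18, 563 and 132 count units in controls and 576, 353 and 635 units after siRNA. As 0.187, 4.96 and 1.37 CPM, its controls differed by 26.5-fold, against 1.59-fold between siRNA libraries at 4.75, 3.02 and 4.796 CPM. Its log2 fold change of 0.95 (SE 0.89, adjusted p = 0.700 by edgeR) became 0.40 without control 1 and 2.43 without control 2.

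Because the shares of paralogs within a library do not depend on how libraries are scaled to each other, the composition of the PHC, RING and PCGF families was compared as shares of summed counts per kilobase of exon. Of Bmi1, Pcgf1 and Pcgf6 together, Bmi1 made up 34.3%, 30.2% and 29.3% in controls and 52.3%, 55.0% and 53.0% in siRNA libraries. Every siRNA library was above every control. The means were 31.3 ± 2.64% and 53.4 ± 1.40% (SD, n = 3 each), a difference of 22.1 points. Pcgf1 made up 32.9%, 38.5% and 31.6% in controls and 11.01%, 15.4% and 12.3% after siRNA, a difference of -21.4 points between means of 34.3 ± 3.64% and 12.9 ± 2.28%. Its share in each siRNA library was under the lowest control share. Pcgf6 had shares of 34.4 ± 4.10% and 33.7 ± 3.67% in the 2 groups, which overlapped. Of Phc1, Phc2 and Phc3 together, Phc2 made up 9.04%, 32.5% and 19.3% in controls and 51.9%, 44.1% and 57.5% after siRNA, a difference of 30.9 points. Phc1 took most of the rest, 81.9%, 59.0% and 75.6% in controls and 43.9%, 48.7% and 37.2% after siRNA. The shares of a family add up to a whole, and Phc1's own CPM overlapped between the groups (log2 fold change -0.05). Exact two-sided permutation tests of the 5 shares gave p = 0.1 for Phc2, Ring1, Bmi1 and Pcgf1, the smallest p that 3 against 3 libraries allow, and p = 0.9 for Pcgf6; adjusted over the 5, the exact permutation p was 0.125 for the first 4 and 0.9 for Pcgf6. The design cannot reach 0.05 with this test. The shares of Bmi1, Pcgf1 and Pcgf6 are tied to each other, so the 5 tests are not independent. They also reuse counts in which Phc2, Bmi1 and Pcgf1 already had no overlap between the groups. Ring1's share rests on counts that lie mostly under the floor.

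**Figure D3:**
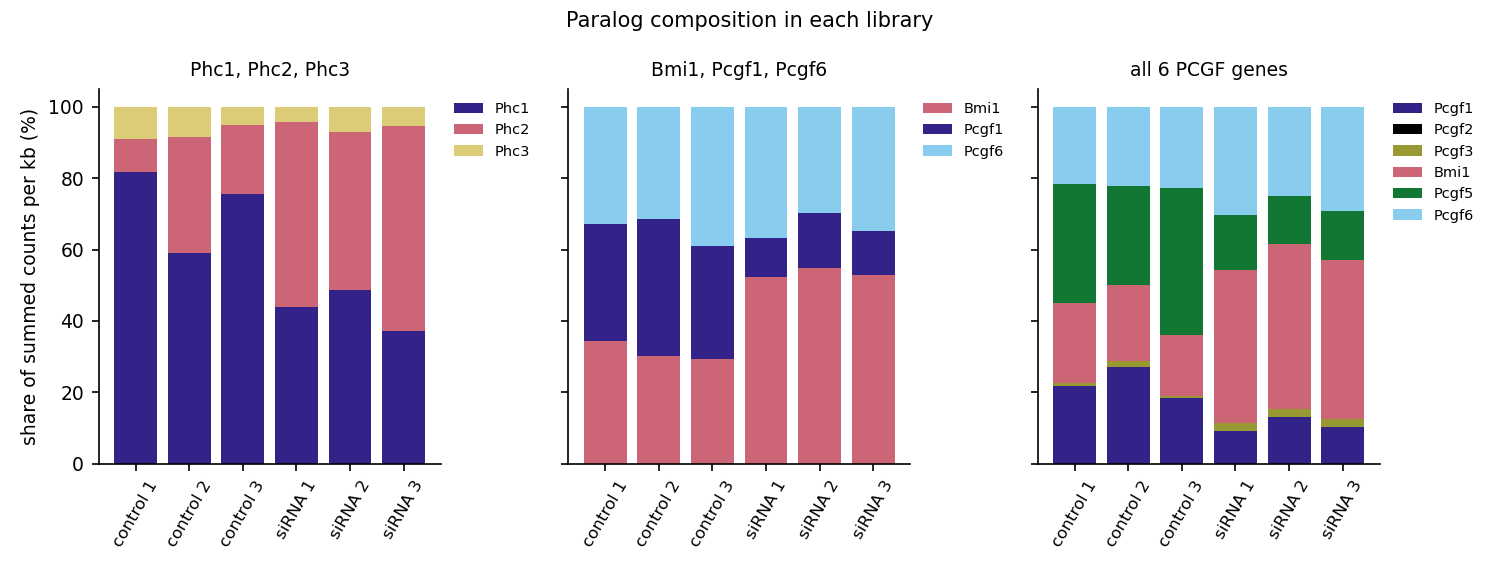
Share of each paralog in the summed counts per kilobase of exon of its family (y axis, percent) in each of the 6 libraries, for the 3 PHC genes, for Bmi1, Pcgf1 and Pcgf6, and for all 6 PCGF genes. Phc2 and Bmi1 take larger and Phc1 and Pcgf1 smaller shares in all siRNA libraries than in any control. Over all 6 PCGF genes Pcgf6 and Pcgf3 are also larger and Pcgf5 smaller, while Pcgf6 overlaps among the 3. The shares of a family add up to a whole, so a share can move without the gene's own level. In CPM, Phc1 and Pcgf6 overlapped between the groups.

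With Pcgf2, Pcgf3 and Pcgf5 added, a denominator used after the first values had been seen, Pcgf5 ranked first per kilobase in each control. Per kilobase it stood behind Bmi1 and Pcgf6 in every siRNA library. That order depends on exon length, 12629 bases for Pcgf5, 3974 for Bmi1 and 5027 for Pcgf6. In CPM, Pcgf5 (379, 305.5 and 348) was above Pcgf6 (295.5, 228 and 299) in every siRNA library. It was above Bmi1 (332, 335 and 360 CPM) only in siRNA library 1. Pcgf5 took 33.4%, 27.8% and 41.4% of the PCGF counts per kilobase in controls and 15.4%, 13.3% and 13.6% after siRNA. Bmi1 took 22.5%, 21.3% and 17.0% in controls and 43.0%, 46.4% and 44.7% after siRNA. Pcgf6 had 22.1 ± 0.541% and 28.2 ± 2.78% (SD, n = 3 each), with no overlap here, unlike its share among the 3 genes. Its own CPM overlapped between the groups (log2 fold change 0.10), while Pcgf5 and Pcgf1 were lower in every siRNA library. Pcgf3 took 0.722% to 1.72% in controls and 2.07% to 2.20% in siRNA libraries. Pcgf2, the other PCGF gene named for canonical complexes, stayed at or below 0.0265% in every library, so that Bmi1 made up nearly all of that pair. Which type of complex its product joined was not measured.

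Levels per kilobase of exon put Rnf2, Bmi1, Pcgf1, Pcgf6 and Rybp far above the Polyhomeotic genes and Cbx2 in both groups, with Ring1 the lowest. In controls the order was Rnf2 (102 ± 31.9 CPM per kilobase, SD, n = 3), Pcgf6 (51.0 ± 19.4), Pcgf1 (49.1 ± 8.51) and Bmi1 (45.1 ± 10.04), whose neighbours in that order overlapped in range. Rybp followed at 27.4 ± 4.66 CPM per kilobase, below the range of Bmi1. Phc1 came next at 1.15 ± 0.563, then Cbx2 at 0.510 ± 0.583, Phc2 at 0.279 ± 0.108, Phc3 at 0.122 ± 0.0698 and Ring1 at 0.0107 ± 0.0185 CPM per kilobase. From Phc1 to Phc3 each range overlapped the next. In siRNA libraries Bmi1 headed the order at 86.1 ± 3.82 CPM per kilobase, above the range of Rnf2 (63.5 ± 9.23), and Phc2 at 1.34 ± 0.316 overlapped Phc1 at 1.11 ± 0.0711. Exon length here is the union of all annotated exons, which for Phc3, at 17485 bases, is far longer than for Pcgf1, at 1649 bases, and lowers the per-kilobase value of genes whose long isoforms are not used.

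**Figure D4:**
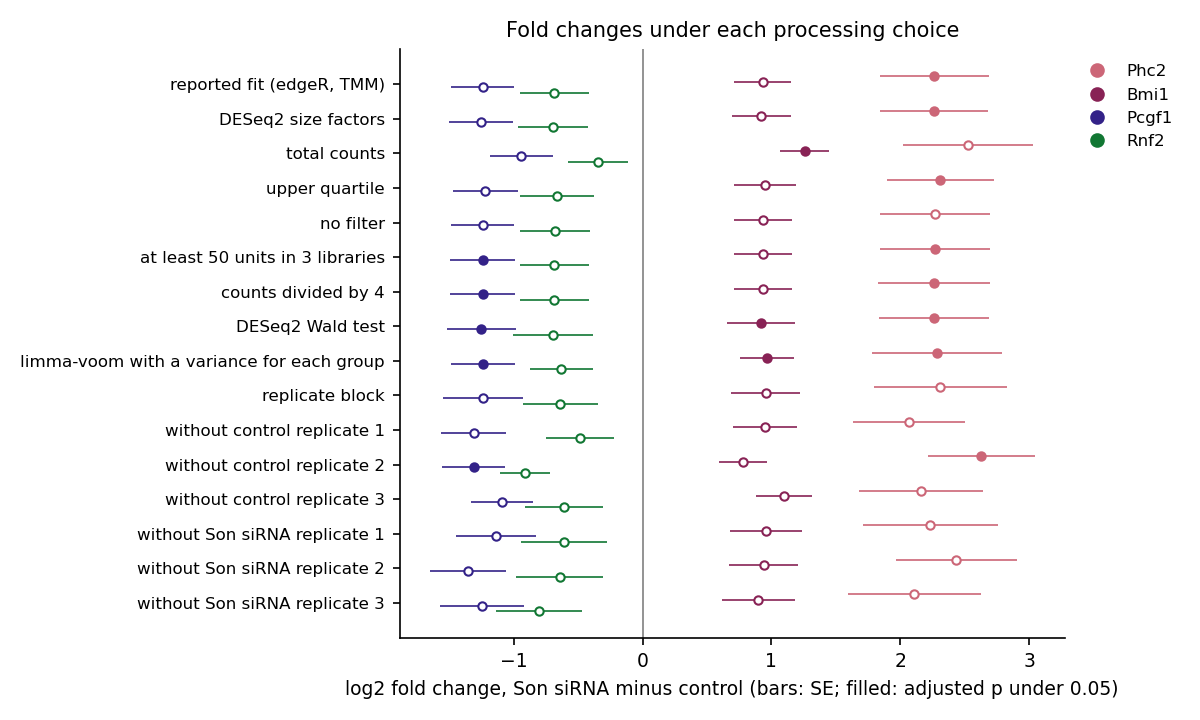
Log2 fold change, Son siRNA minus control, of Phc2, Bmi1, Pcgf1 and Rnf2 (x axis; bars, SE; filled points, adjusted p under 0.05) under the reported fit and 15 other choices of scaling, filter, test and libraries (y axis). The sign of all 4 genes is the same in every row, and Phc2 is filled in 8 of the 16 rows, Pcgf1 in 5 and Bmi1 in 3.

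The partner list, 30 further PRC1 subunits and cofactors, held 0 genes past edgeR's threshold in either direction among 29 tested, with a median log2 fold change of 0.23. At an unadjusted p under 0.05, 2 were higher and 6 lower (5.88% and 8.86% of all genes), and DESeq2's calls were 1 higher and 4 lower (2.33% and 4.74% of all genes). The groups had no overlap in 3 partners higher after siRNA and 4 lower, of 29 tested, against 12.1% and 11.6% of all genes. The 4 lower ones are also the 4 with the smallest p, described next because of that p. Hdac1, a histone deacetylase found with the Pcgf6 complex, had 104 ± 5.37 CPM in controls and 51.5 ± 6.70 CPM in siRNA embryos (SD, n = 3 each; log2 -1.01, edgeR adjusted p = 0.0700). Pcgf5 had 859, 573 and 1682 CPM in controls and 379, 305.5 and 348 CPM in siRNA embryos (log2 -1.59, edgeR adjusted p = 0.0832). Usp7, a deubiquitinase of variant complexes, had 521 ± 62.6 and 298 ± 12.1 CPM (log2 -0.81, edgeR adjusted p = 0.0901). Kdm2b, which brings the Pcgf1 complex to CpG islands, had 86.7 ± 9.20 and 45.8 ± 8.03 CPM (log2 -0.92, edgeR adjusted p = 0.108). Bcor, of the same complex, overlapped between the groups, at 16.4 ± 6.64 and 19.6 ± 6.54 CPM (log2 0.25, edgeR adjusted p = 0.850), and was named after its values were seen. Of their 100-base stretches, 24.9% for Hdac1 and 10.4% for Kdm2b also occur in transcripts of other genes, and 0% for Pcgf5 and Usp7.

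Of 16 genes that remove ubiquitin from H2A or assist that step, 0 passed edgeR's test, with 1 higher and 1 lower at an unadjusted p under 0.05 (5.88% and 8.86% of all genes); by DESeq2 0 were higher and 1 lower (2.33% and 4.74%). The median log2 fold change was 0.10. Mysm1, an H2A deubiquitinase, had 334.5, 359 and 344 CPM in controls and 169, 240 and 128 CPM in siRNA embryos (log2 -0.95, edgeR adjusted p = 0.118). Usp16, another H2A deubiquitinase, had 401 ± 30.4 and 341 ± 18.0 CPM (SD, n = 3 each; log2 -0.23, edgeR adjusted p = 0.618; 0.06 with total counts). Usp12 had 7.41 ± 2.60 and 13.1 ± 1.93 CPM (log2 0.82, edgeR adjusted p = 0.326), and Foxk2, a Bap1 partner, 8.49 ± 3.22 and 13.6 ± 0.902 CPM (log2 0.67, edgeR adjusted p = 0.445).

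In Polycomb repressive complex 2 (PRC2), which places the histone H3 methylation that CBX proteins read, 0 of 13 tested genes passed edgeR's threshold, with 0 higher and 4 lower at an unadjusted p under 0.05 (5.88% and 8.86% of all genes); by DESeq2 0 were higher and 3 lower (2.33% and 4.74% of all genes). The median log2 fold change was -0.32, or 0.01 with total-count scaling, under which the median of all genes was 0.31. These 4 were Mtf2, a DNA-binding partner of PRC2 (1790 ± 785 CPM in controls and 641 ± 58.6 CPM in siRNA embryos, log2 -1.48, edgeR adjusted p = 0.0713), the cofactor gene Aebp2 (log2 -0.87, 0.0786), the core subunit gene Eed (log2 -0.84, 0.113) and Jarid2 (log2 -0.73, 0.261), which encodes a subunit that binds ubiquitinated H2A.

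Most classical Polycomb target genes had few or no counts, with Gata4, Gata6 and Pax6 the clearest exceptions. Of 40 listed, 20 passed the filter and 6 of these reached 1 CPM on average. Over all genes, 17788 of 46072 passed the filter and 11958 of these reached 1 CPM on average. Of the targets, 0 passed edgeR's test, and 2 were higher and 2 lower at an unadjusted p under 0.05 (5.88% and 8.86% of all genes). DESeq2's calls were 1 higher and 1 lower (2.33% and 4.74%). The median log2 fold change of the target list was -0.14, 0.41 without a filter and -0.31 to 1.20 over all settings run. Gata4, another GATA factor gene of the endoderm, had 37.4, 83.35 and 27.3 CPM in controls and 55.9, 35.5 and 52.8 CPM in siRNA embryos, and Pax6, of eye and brain development, had 13.0, 5.09 and 5.17 against 5.47, 3.96 and 2.79 CPM; both overlapped (edgeR adjusted p = 0.982 and 0.422) and were named after their values were seen. Gata6, a primitive endoderm transcription factor, had 15.75, 7.65 and 9.29 CPM in controls and 1.19, 3.26 and 1.38 CPM in siRNA embryos (log2 -2.49, edgeR adjusted p = 0.0656). Hoxd13 had 0, 0.493 and 0.457 CPM in controls and 1.53, 3.90 and 4.40 CPM in siRNA embryos (edgeR adjusted p = 0.224). Hoxb4 was at 0 in all controls and at 0.0908, 0.222 and 0.181 CPM in siRNA embryos (edgeR adjusted p = 0.153). Its value in siRNA library 1 lies under the floor of that library, 0.0991 CPM. Hoxb9 had 0.208 to 0.239 CPM in controls and at most 0.033 CPM in siRNA embryos (edgeR adjusted p = 0.312). Hoxb4 and Hoxb9 passed the filter only through the group where they are high, so a difference is partly built in. Both are among the targets counted above at an unadjusted p under 0.05.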

How the data were processed

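Estimated counts per gene were deposited by the authors as whole numbers, 1 table per library. GRCm38, StringTie 1.3.3b and HISAT2 2.0.5 are named in the submitters' processing notes. How reads were counted and filtered, and with which annotation, is not given in the sources used here. Values of 1 to 40 were multiples of 4 in 26.4% to 32.4% of genes, little above the 25% expected by chance; 1 read pair was taken as about 4 units, an assumption with weak support that the floor rests on. GENCODE M21 (GRCm38) matched 45223 of 46072 identifiers and gave coordinates, exon lengths and overlaps. The test was edgeR 4.0.16 in R 4.3.3 (filterByExpr, TMM, glmQLFit and glmQLFTest, no block, Benjamini-Hochberg, threshold 0.05), fitted on all genes. Alternatives were other scalings, filters, DESeq2 1.42.0, limma-voom 3.58.1, a replicate block and leaving out each library. In counts simulated for Son siRNA against control over 16703 genes, 186 genes were called, 9 of them false. Changes were placed only in genes at 5 CPM or more on average. Of these, 80 of 100 with a 4-fold and 97 of 100 with an 8-fold change were found. Both groups were simulated with the same spread for each gene, while the real controls spread more than the siRNA libraries. Recovery of less abundant genes and of smaller changes was not tested. Same-numbered libraries did not deviate together (r of -0.274, -0.332 and 0.0234), so numbers were not treated as pairs. Members and lists were chosen with earlier results of these data known. Named genes were the members, Son, and the 4 smallest p of each list.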

Additional observations from a re-analysis of the deposited data

How the results depend on the processing

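With total-count scaling the median log2 fold change of all genes moved by 0.29, and that of the PRC1 genes was 0.47. Without control 1 it was 0.416, and over the single-library omissions 0.01 to 0.416. PRC1 genes called higher numbered 0 with no filter and with the replicate block, 2 with DESeq2 and with limma-voom, and 0 to 1 without single libraries; with total counts the 1 called was Bmi1, not Phc2. Those called lower numbered 1 with a filter of 50 units in 3 libraries, with counts divided by 4, with DESeq2 and with limma-voom, and 0 to 1 without single libraries. Over all genes, 16 higher and 160 lower calls became 7 and 35 with total counts, 9 and 91 with no filter, 43 and 245 with the stricter filter, 51 and 279 with counts divided by 4, 405 and 823 with DESeq2, 43 and 330 with limma-voom, 0 and 0 with the replicate block, and 0 to 84 and 0 to 231 without single libraries. The share of lower calls thus moved from 160 of 176 to 823 of 1228 with DESeq2. PRC1 partners called lower numbered 2 with counts divided by 4, 4 with DESeq2, 3 with limma-voom and 0 to 1 without single libraries, and 1 was higher with DESeq2. For H2A deubiquitination genes DESeq2 called 1 lower. PRC2 genes called lower numbered 1 with the stricter filter and with counts divided by 4, 3 with DESeq2, 2 with limma-voom and 0 to 1 without single libraries. Polycomb targets had 1 lower with the stricter filter, counts divided by 4, DESeq2 and limma-voom, and 1 higher with DESeq2.

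With the replicate block, Son stood at -3.29 on the log2 scale (edgeR adjusted p = 0.0617), and without single libraries -3.50 to -3.12. Phc2 had 2.31 with the block (edgeR adjusted p = 0.155). The replicate numbers pair no samples by label, and siRNA library 2 deviated most like control 1 (r = 0.412). The sign turned for Phc1 with total counts (0.281), limma-voom (0.074), the block (0.061), without control 1 (0.428) and without siRNA library 3 (0.0), the single-library omissions giving -0.283 to 0.428, for Phc3 without control 3 (-0.099, with omissions up to 0.759), for Pcgf6 without control 2 (-0.097, with omissions up to 0.448), for Rybp with total counts (0.01) and for Usp16 with total counts (0.057). The difference in Pcgf6 share was 6.09 points over all 6 PCGF genes, a denominator chosen after seeing the data, 1.61 without control 3, 1.32 without siRNA library 2 and as low as -2.24 without control 2. Shares of Phc2, Bmi1 and Pcgf1 kept their direction in every alternative run, as did that of Ring1, whose counts lie mostly under the floor. Bmi1's difference was 17.6 points and Pcgf1's -10.8 points without division by exon length. Cause was not tested for any of these.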

Other observations

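Genes whose log2 CPM over the 6 libraries was most like that of Phc2, among 6850 genes at 5 CPM or more on average, were Pde3b, a cyclic nucleotide phosphodiesterase gene (Pearson r = 0.995), Peo1, which encodes the mitochondrial DNA helicase Twinkle (r = 0.992), and Slain1, a microtubule regulator gene (r = 0.991). All 6 points share their libraries and scaling, and both groups contribute to r, so these values are a description. Pde3b had 6.86 ± 1.66 CPM in controls and 23.9 ± 2.47 CPM in siRNA embryos (SD, n = 3 each; log2 1.80, edgeR adjusted p = 0.0402). Slain1 had 8.67 ± 2.57 and 27.6 ± 5.14 CPM (log2 1.67, edgeR adjusted p = 0.0575), and Peo1 had 18.7 ± 3.45 and 35.0 ± 5.37 CPM (log2 0.90, edgeR adjusted p = 0.166).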
